A study of Homo sapiens with 19 samples.

Results

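A mutant and the wild-type form of the RNA methyltransferase FBL were compared at every listed ribose methylation site of human ribosomal RNA. In 2 libraries Kasumi-1 cells with FBL knocked down re-expressed a mutant that the sample titles call FBLQua, and in 2 libraries the same knockdown cells re-expressed wild-type FBL. The members are these 4 of the 19 libraries of the study, chosen by title, with all 120 sites for which a methylation score was deposited. Kasumi-1 is an established acute myeloid leukaemia cell line with a RUNX1-RUNX1T1 fusion. All groups used here were grown in 20% serum with doxycycline at 100 ng/ml, which switches on the knockdown. For orientation, 3 further groups of 2 libraries each are cited. They are FBL knockdown with a second mutant titled FBLTri, FBL knockdown with an empty vector, and control knockdown with an empty vector, in which cells keep their own FBL. The column names of all 4 vector groups with FBL knockdown carry the hairpin name shFBL4, so the knockdown cells of these 4 groups trace to a single hairpin. The columns of the libraries titled FBLQua carry the name Tri. Groups follow the titles, and all FBLQua values depend on those being right. The labels do not give the substitutions that make up FBLQua, the amount of each re-expressed protein, or whether replicates were separate cultures. P-values therefore measure the spread between libraries, which may be technical. Fragment ends of rRNA hold no reading of FBL itself, so neither the knockdown nor the level of the re-expressed proteins could be checked.

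Fibrillarin (FBL) is the methyltransferase of box C/D small nucleolar ribonucleoproteins. In these particles a guide RNA of the SNORD family pairs with rRNA and places one nucleotide in the active site of FBL, which moves a methyl group to its ribose. Most guides are cut from introns of host genes, many of them ribosomal protein genes or non-coding SNHG genes, and a guide with 2 antisense elements can serve 2 sites. The methyl groups cluster in functional parts of the ribosome such as the decoding and peptidyl transferase regions.

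RiboMethSeq reads a methylated ribose as a gap in the ends of alkali-cut fragments, since the methyl group protects the adjacent bond. The score C used throughout is 1 minus the number of ends at the position after the site, divided by the weighted mean number at 6 positions on either side. It is set to 0 where negative, approaches 1 where nearly all molecules are protected, and was deposited as a fraction. Sites are named by rRNA and position in the deposited numbering, with the deposited guide. The 4 libraries held 11627924 to 14054606 end counts. Around each site the flanks averaged 93.5 to 33690 counts, with a median of 1213, and the 95% counting half-width of score C had a median of 0.0193 and reached 0.271. Replicates of FBLQua differed by a median of 0.0155 in score C and those of wild-type FBL by 0.0113. A site is called where limma, fitted over the 14 knockdown libraries, gave an adjusted p under 0.05 across the 120 sites. In that fit the libraries without a vector were shallower. Their median flanking counts were 139 to 614, against 972 to 1585 in the 4 compared libraries.

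Methylation with FBLQua was lower than with wild-type FBL across much of the rRNA. Score C was called lower at 71 of 120 sites (59.2%) and higher at 1 (0.833%). The remaining 48 sites were not called. Of the called sites, 59 were lower by at least 0.05, 39 by at least 0.1 and 12 by at least 0.2, with a median difference of -0.108 among the 71. In the libraries themselves, both FBLQua values lay below both wild-type values at 94 sites (78.3%) and above both at 1 site (0.833%). A mean score of 0.9 or more was held by 33 sites with FBLQua and by 71 sites with wild-type FBL, while 20 sites with FBLQua and 16 with wild-type FBL were under 0.5. Score C is relative within a library. The library medians differed by -0.102 between the groups, while the median of the 120 site differences was -0.070. Adding a constant to each library to make the medians equal left 23 sites called lower and 43 higher, and 20 of the 71 lower sites became called higher. The constant also shifts sites near full protection in both groups, such as 28S-4469, to a difference of 0.103. The count of 71 refers to the deposited score as it is, and the 23 to sites lower by more than the difference of the library medians.

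**Figure D1:**
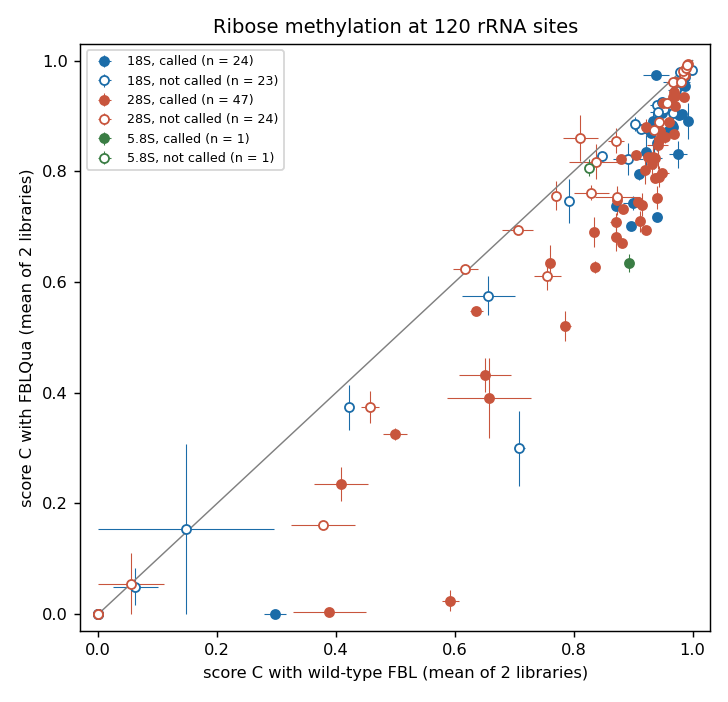
Mean score C of the 120 sites with FBLQua (vertical axis) against wild-type FBL (horizontal axis), 1 point per site over 2 libraries a group, with called sites filled. The 71 sites called lower lie below the diagonal, and 28S-2388 is the farthest from it, at 0.0241 with FBLQua and 0.593 with wild-type FBL.

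The mean score over the 120 sites was 0.716 and 0.722 in the FBLQua libraries, against 0.808 and 0.811 in the wild-type FBL libraries. Neither group overlapped the other, and the group means of 0.719 ± 0.0038 and 0.809 ± 0.0023 (SD, n = 2 each) differed by -0.0903. An exact two-sided permutation test over libraries gave p = 0.333, which is the smallest value that 2 against 2 libraries allow. With FBLQua the mean lay beside that of the empty vector (0.721 ± 0.0089, SD, n = 2) and of FBLTri (0.715 ± 0.00054, SD, n = 2), and below that of control knockdown with empty vector (0.868 ± 0.0059, SD, n = 2). Over the 47 sites of 18S rRNA the FBLQua mean was 0.720 ± 0.013, against 0.790 ± 0.0055 with wild-type FBL and 0.747 ± 0.0045 with empty vector. The 71 sites of 28S rRNA averaged 0.719 ± 0.0023 with FBLQua, 0.821 ± 0.00027 with wild-type FBL and 0.703 ± 0.012 with empty vector (SD, n = 2 each). The FBLQua mean thus lay below that of empty vector in 18S and above it in 28S.

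At a few sites almost no protection was seen with FBLQua. Wild-type FBL is a parallel group and not a starting level, so the differences are not changes over time. Comparisons with empty vector are given further below. In them 28S-2388 was called lower with FBLQua, while 28S-1868 and 18S-1447 were not called in either direction. At 28S-2388, guided by SNORD68, score C was 0.0049 and 0.0433 with FBLQua, against 0.579 and 0.606 with wild-type FBL. The ends behind these scores numbered 10721 and 17660 in the FBLQua libraries, level with flank means of 10774 and 18459, and 4794 and 8250 in the wild-type libraries, against flank means of 11381 and 20951. The difference was -0.568 (SE 0.0248, adjusted p = 8.38e-07, limma). With FBLQua the site was thus cut about as often as its neighbours. Against FBL knockdown with empty vector the FBLQua difference at 28S-2388 was -0.099. At 28S-1868, guided by SNORD48, the scores were 0.0077 and 0 with FBLQua, against 0.450 and 0.328 with wild-type FBL (difference -0.385, SE 0.0400, adjusted p = 4.56e-05, limma). At 18S-1447, guided by SNORD127, both FBLQua libraries scored 0, against 0.316 and 0.279 with wild-type FBL (difference -0.297, SE 0.0666, adjusted p = 0.00456, limma). Control knockdown with empty vector scored 0.577 and 0.756 at 18S-1447 and 0.928 and 0.907 at 28S-2388, so wild-type FBL also lay below the cells with their own FBL at both sites.

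**Figure D2:**
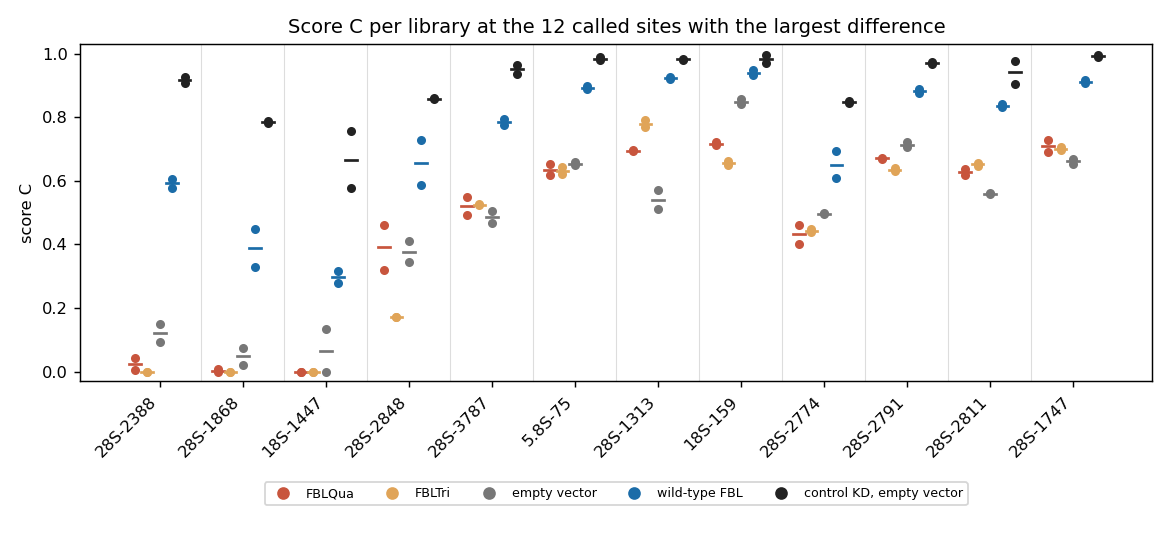
Score C per library (vertical axis) at the 12 called sites with the largest difference between FBLQua and wild-type FBL (horizontal axis), for FBLQua, FBLTri, empty vector, wild-type FBL and control knockdown with empty vector. At 28S-2388, 28S-1868 and 18S-1447 the FBLQua points lie between 0 and 0.0433, below the wild-type points of 0.279 to 0.606.

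Other large differences lay at sites with partial or high protection with wild-type FBL. At 28S-3787, guided by SNORD10, score C was 0.493 and 0.548 with FBLQua, against 0.776 and 0.796 with wild-type FBL (difference -0.265, SE 0.0248, adjusted p = 2.41e-05, limma). The FBLQua values lay below both wild-type values by far more than either pair differed. At 5.8S-75, guided by SNORD96A and SNORD96B, the scores were 0.651 and 0.619 with FBLQua, against 0.889 and 0.898 with wild-type FBL (difference -0.258, SE 0.0163, adjusted p = 2.50e-06, limma). Ends at this position numbered 1308 and 1164 with FBLQua and 423 and 319 with wild-type FBL, on flank means of 3054 to 3798. The other site of 5.8S rRNA, 5.8S-14 (SNORD71), scored 0.791 and 0.821 with FBLQua, against 0.831 and 0.820 with wild-type FBL. Its groups overlapped and it was not called (difference -0.0191, 95% interval -0.0767 to 0.0385).

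In 28S rRNA the site 28S-1313, which the SNORD18 guides from introns of RPL4 serve, scored 0.693 and 0.696 with FBLQua, against 0.925 and 0.919 with wild-type FBL (difference -0.228, SE 0.0206, adjusted p = 2.15e-05, limma). Protection at 28S-1747, guided by SNORD73A, was 0.729 and 0.691 with FBLQua, against 0.915 and 0.907 with wild-type FBL, a difference of -0.201 in score C. A stretch of 7 listed sites lay between 28S-2774 and 28S-2863. There 28S-2774 (SNORD99), 28S-2791 (SNORD55), 28S-2802 and 28S-2811 (both SNORD95), 28S-2824 (SNORD34), 28S-2848 and 28S-2863 (both SNORD50A) had differences in score C of -0.220, -0.211, -0.150, -0.209, -0.098, -0.267 and -0.173. All 7 listed sites of the stretch were called, and 28S-2824 was above 0 with equal library medians. Replicates at 28S-2848 were far apart, with 0.462 and 0.319 for FBLQua against 0.728 and 0.587 for wild-type FBL, though the groups did not overlap. In the fit on the 4 compared libraries alone 28S-2848 was not called (adjusted p = 0.0727, limma). The call at 28S-2863 was lost on a log2 scale of the end ratio, without FBLQua replicate 2, without wild-type replicate 1 and with equal library medians.

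Farther along 28S rRNA, 28S-3680 (SNORD88 guides), 28S-3697 (SNORD37), 28S-3739 (SNORD46), 28S-3848 (SNORD53) and 28S-4276 (SNORD41) had scores of 0.691 to 0.809 with FBLQua, against 0.861 to 0.960 with wild-type FBL. All were called, with differences of -0.187, -0.175, -0.152, -0.162 and -0.154. The site 28S-4020, guided by SNORD102, was only partly protected in both groups, at 0.315 and 0.336 with FBLQua, against 0.519 and 0.480 with wild-type FBL (difference -0.174, SE 0.0312, adjusted p = 0.00116, limma).

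In 18S rRNA the largest called difference beside 18S-1447 was at 18S-159, served by SNORD45A and SNORD45C from introns of RABGGTB. Score C was 0.712 and 0.722 with FBLQua, against 0.933 and 0.948 with wild-type FBL (difference -0.223, SE 0.0109, adjusted p = 1.07e-06, limma). The site 18S-1442, guided by SNORD61, had 0.701 and 0.702 with FBLQua, against 0.890 and 0.903 with wild-type FBL (difference -0.195, SE 0.0104, adjusted p = 1.27e-06, limma). It lies 5 nucleotides from 18S-1447, so each site falls in the flank from which the other is scored. At 18S-116, guided by SNORD42A and SNORD42B from RPL23A, the scores were 0.729 and 0.756 with FBLQua, against 0.883 and 0.915 with wild-type FBL (difference -0.156).

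Sites near full protection show small differences in score C where the number of unprotected ends differed by a large factor. At 18S-509, guided by SNORD11 and SNORD11B, 216 and 129 ends were counted with FBLQua, against 12 and 12 with wild-type FBL, on flank means of 1151 to 2155. The mean ratio of ends to flank was 0.109 with FBLQua and 0.0080 with wild-type FBL, 13.7 times as high with FBLQua. In score C this is a difference of -0.101 (adjusted p = 0.000775, limma), which was not called in the fit on the 4 libraries alone. Its neighbour 18S-512 (SNORD70) had 223 and 134 ends with FBLQua, against 37 and 11 with wild-type FBL, a ratio 6.93 times as high (difference in score C -0.145, adjusted p = 6.90e-05, limma). At 28S-2388 the same ratio was 2.39 times as high. The order of sites thus depends on whether score C or the end ratio is read.

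**Figure D3:**
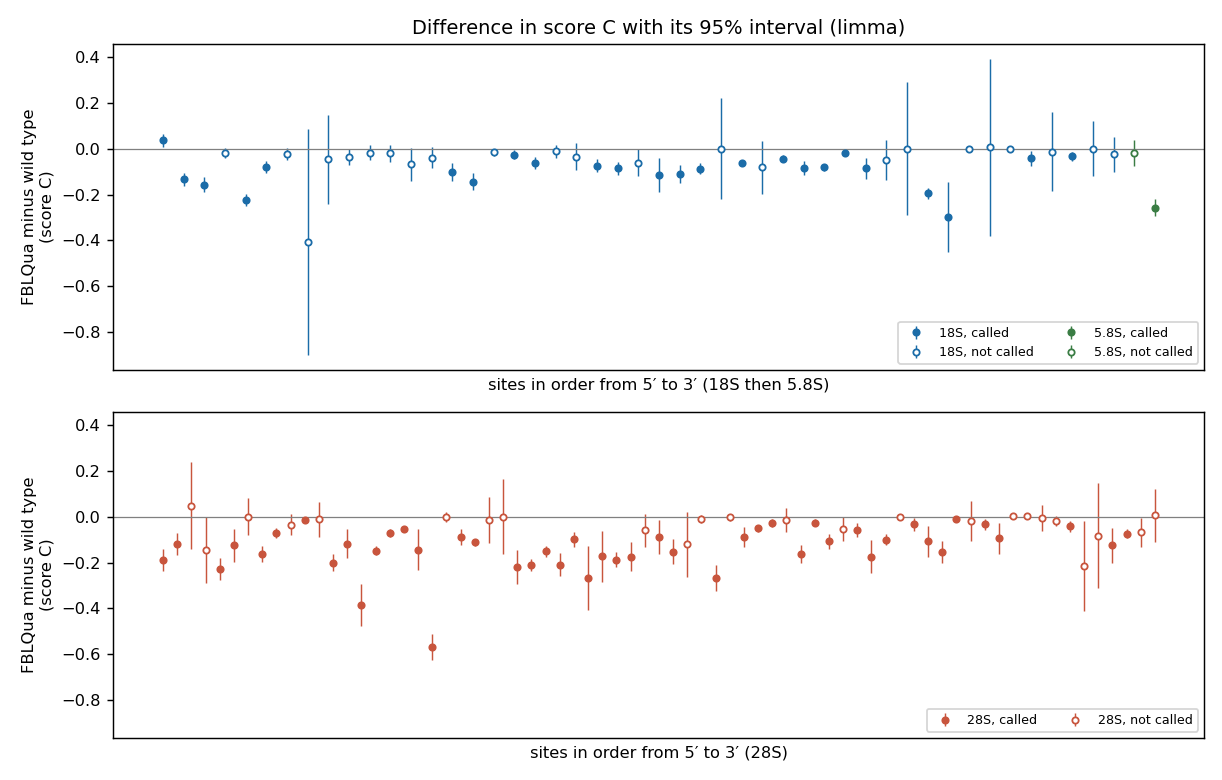
Difference in score C, FBLQua minus wild-type FBL (vertical axis), with its 95% interval from limma, for all sites in 5′ to 3′ order (horizontal axis), with called sites filled. Most points lie at or below 0, from -0.568 at 28S-2388 to 0.0484 at 28S-1029, and the widest interval is that of 18S-174.

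By rRNA, 23 of 47 sites of 18S were called lower and 1 higher, 47 of 71 sites of 28S were lower, and 1 of 2 sites of 5.8S. The share to set beside these and the counts below is 71 of all 120 sites (59.2%). Median differences in score C were -0.05 in 18S and -0.09 in 28S, beside -0.07 over all 120 sites. Within 28S rRNA, 14 of 17 sites between positions 2000 and 3500 were lower, with a median difference of -0.14. Up to position 2000 it was 10 of 15 (median -0.12), and between 3500 and 4100 it was 14 of 20 (median -0.09). Beyond position 4100, the end that holds the peptidyl transferase region, 9 of 19 sites were lower, with a median of -0.03. In 18S rRNA 10 of 23 sites up to position 670 and 13 of 24 beyond it were lower, each with a median of -0.05. These counts describe the stretches and were not tested against each other.

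**Figure D4:**
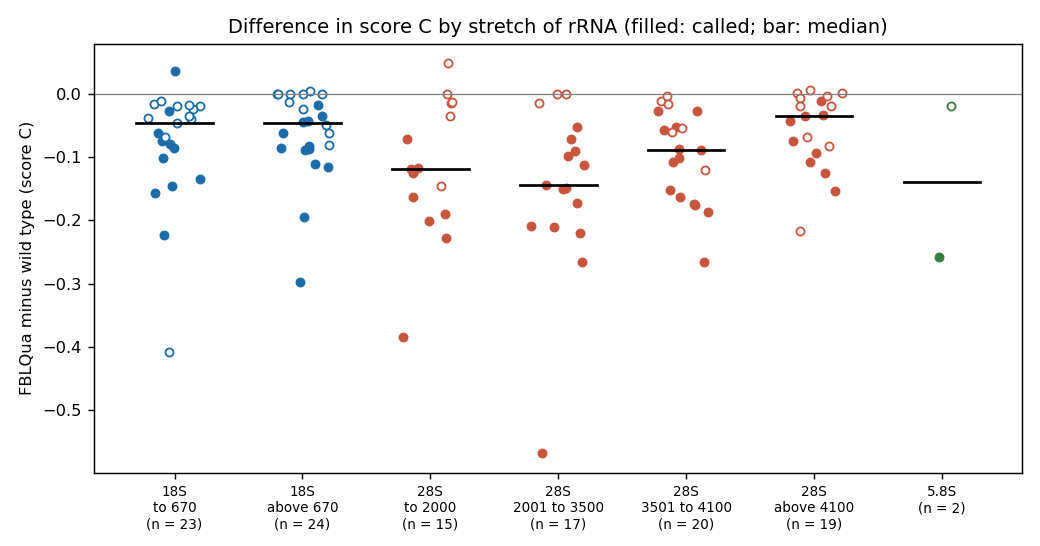
Difference in score C, FBLQua minus wild-type FBL (vertical axis), of each site by stretch of rRNA (horizontal axis), with the median of each stretch as a bar and called sites filled. The stretch of 28S between positions 2000 and 3500 has the lowest median of the 6 stretches of 18S and 28S, at -0.14, and the one beyond 4100 the highest, at -0.03.

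Sites were also grouped by the guide and its host gene. Of 73 sites with 1 named guide 52 were lower and 1 higher, and of 31 sites with 2 or more guides 18 were lower, beside 59.2% of all sites. Of 3 sites with no guide named 1 was lower. None of 13 sites whose guide is predicted or unknown was called. Their median score was 0.154 with FBLQua and 0.148 with wild-type FBL, and 4 of them, 18S-936, 18S-1441, 18S-1705 and 28S-1339, scored 0 in all 4 libraries. Among those with a high score, 28S-2527 had 0.730 and 0.782 with FBLQua, against 0.773 and 0.768 with wild-type FBL (difference -0.0145, 95% interval -0.116 to 0.0874).

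Guides from GAS5, a non-coding host gene with a terminal oligopyrimidine start, served 10 sites, of which 9 were lower, beside 59.2% of all sites. Their median difference was -0.06, beside -0.07 over all sites. Its sites 28S-391 (SNORD81), 28S-4032 (SNORD75), 18S-166 (SNORD44) and 28S-4593 (SNORD78) differed by -0.119, -0.101, -0.079 and -0.075 in score C. With equal library medians the differences of the last 3 were above 0. Guides from SNHG1, another non-coding host, served 8 sites, of which 4 were lower and 1 higher, with a median of -0.01. There 28S-389 (SNORD26) was lower, at 0.709 and 0.655 with FBLQua, against 0.879 and 0.863 with wild-type FBL (difference -0.189, SE 0.0213, adjusted p = 6.91e-05, limma). By contrast 18S-1490 (SNORD25) and 28S-4166 (SNORD31) had differences of 0.00006 and -0.0024.

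Among the ribosomal protein hosts, 4 of 5 sites served from RPL13A, 3 of 4 from RPL7A, 1 of 2 from RPL23A and 1 of 2 from RPL4 were lower. Over all sites the share was 59.2%. SNORD24 from RPL7A serves 28S-2338 and 28S-2352, which differed by -0.149 and -0.144. The call at 28S-2352 was lost without FBLQua replicate 1 and without wild-type replicate 2. At the RPL13A sites 28S-2824 (SNORD34), 18S-1326 (SNORD33) and 18S-1328 (SNORD32 guides) the differences were -0.098, -0.085 and -0.082, and with equal library medians these 3 were above 0. Both SNHG5 sites (SNORD50A), the ZFAS1 site 28S-3878 (SNORD12 guides), 1 of 2 NOP56 sites and 1 of 3 RABGGTB sites were lower. No list was tested as a set, and those of this paragraph hold at most 5 sites each, too few to set a host apart from all sites.

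Sites that share a guide did not always share the size of the difference. SNORD68 also serves 18S-428, where score C was 0.883 and 0.868 with FBLQua, against 0.924 and 0.902 with wild-type FBL. The groups did not overlap, but the site was not called (difference -0.0371, SE 0.0153, adjusted p = 0.0636, limma), beside -0.568 at 28S-2388. SNORD62A and SNORD62B serve 18S-590, with a difference of -0.0613 (adjusted p = 0.00142, limma), and 28S-4468. The latter scored 0.994 and 0.993 with FBLQua, against 0.993 and 0.9902 with wild-type FBL. It lies beside 28S-4469 and has 2 listed sites within 6 nucleotides, which fall in its flanks. SNORD30 serves 28S-3804, with a difference of -0.087, and 18S-1383, with one of -0.017, both called. The SNORD58 guides serve the adjacent sites 28S-4198 and 28S-4197, with differences of -0.107 (adjusted p = 0.0125, limma) and -0.0336 (adjusted p = 0.0426, limma). The call at 28S-4198 was lost without FBLQua replicate 2 and without wild-type replicate 1. Differences were close at the SNORD24 pair above and at the SNORD32 pair 18S-1328 and 28S-1511, with -0.082 and -0.072. The difference between sites of one guide was not tested.

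Not every large difference was called. The site 18S-174 (SNORD45C) scored 0.232 and 0.367 with FBLQua, against 0.699 and 0.718 with wild-type FBL, a difference of -0.409 that was not called (SE 0.215, adjusted p = 0.129, limma). One control library outside the comparison, replicate 2 of control knockdown with empty vector, scored 0 there, against 0.825 in its replicate 1, and entered the shared estimate of the spread. In that library 20.79% of counts fell at position 15 of 28S rRNA. Without it in the fit the site was called (adjusted p = 0.00362, limma). At 28S-4560 (SNORD119) the scores were 0.163 and 0.160 with FBLQua, against 0.324 and 0.432 with wild-type FBL (difference -0.216, SE 0.0853, adjusted p = 0.0553, limma), and it was called under 6 of 16 alternatives. The other uncalled sites with large differences were 28S-1303 (SNORD21) at -0.145, 28S-3764 (SNORD15 guides) at -0.120, 28S-4588 (SNORD91 guides) at -0.082 and 18S-1272 (SNORD66) at -0.081 in score C.

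Of the 48 sites not called, 13 had a 95% interval of the difference within 0.05 of 0, and 35 had an interval that reached beyond it. For those 35 a difference of that size is not excluded by the intervals. The narrowest intervals belonged to sites that were near full protection in both groups or at 0 in both. Score C was 0 in all 4 libraries at 6 sites, where negative values are set to 0. The difference there is 0 by construction, so an interval close to 0 at such a site does not show that the groups are alike. At 28S-4469, which is methylated by the protein enzyme FTSJ3 rather than by a box C/D particle, score C was 0.991 and 0.995 with FBLQua, against 0.99004 and 0.992 with wild-type FBL (difference 0.0016, 95% interval -0.0108 to 0.014). Its upstream flank held a weighted mean of 111 and 150 counts with FBLQua and 97.2 and 193 with wild-type FBL, so its score rests on the downstream flank of 3178 to 3716 counts. 18S-1490 had 0.978 and 0.981 with FBLQua, against 0.976 and 0.983 with wild-type FBL. 28S-4340 (SNORD60) moved by -0.0103 and 28S-1612 (SNORD80) by -0.014, both called in the 14-library fit. The call at 28S-1612 was lost in the fit on the 4 libraries and without FBLQua replicate 1 or wild-type replicate 1, and that at 28S-4340 when any 1 of the 4 libraries was left out.

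**Figure D5:**
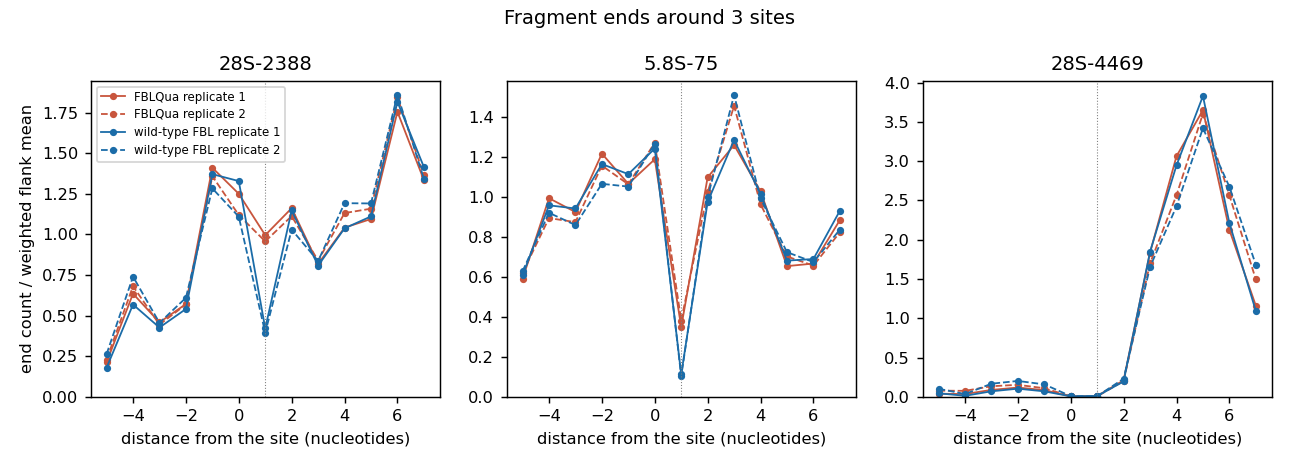
End counts divided by the weighted flank mean (vertical axis) at positions around 28S-2388, 5.8S-75 and 28S-4469 (horizontal axis, distance from the site in nucleotides) in the 2 FBLQua and 2 wild-type FBL libraries, with a dotted line at the position after the site. At that line the FBLQua profiles stand near 1 at 28S-2388 and above the wild-type profiles at 5.8S-75, while all 4 libraries are near 0 at 28S-4469.

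The one site called higher was 18S-27, guided by SNORD27 from SNHG1. Score C was 0.978 and 0.970 with FBLQua, against 0.916 and 0.960 with wild-type FBL (difference 0.036, SE 0.0129, adjusted p = 0.0378, limma). These scores rest on 6 and 8 ends with FBLQua and 21 and 12 with wild-type FBL, on flank means of 250 to 299 counts. Of the 15 alternatives that kept this site, 8 lost the call, including without either FBLQua replicate and without wild-type replicate 1.

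Against FBL knockdown with the empty vector, which asks what FBLQua did relative to no re-expressed FBL, 14 sites were called lower with FBLQua (11.7%) and 9 higher (7.5%). This comparison and those that follow share the FBLQua libraries with the comparison above. Of the lower sites 11 were in 18S rRNA and 3 in 28S, and of the higher sites 2 were in 18S and 7 in 28S. The listed sites number 47 in 18S and 71 in 28S. At 18S-159 score C was 0.712 and 0.722 with FBLQua, against 0.842 and 0.856 with empty vector (difference -0.132, adjusted p = 0.000155, limma). At 18S-512 it was 0.806 and 0.855 with FBLQua, against 0.955 and 0.944 with empty vector (difference -0.119, adjusted p = 0.000883, limma). FBLQua lay below empty vector at both sites in both libraries. Lower sites also included 18S-116 at -0.117, 18S-99 (SNORD57) at -0.099, 28S-2388 at -0.099, 18S-509 at -0.084, 18S-799 (SNORD105 guides) at -0.063 and 18S-1328 at -0.061. The calls at 28S-2388 and 18S-799 were lost without FBLQua replicate 1 and without empty-vector replicate 2, and that at 18S-799 also without empty-vector replicate 1.

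Of the 9 higher sites 7 lay in 28S rRNA, which holds 71 of the 120 listed sites. At 28S-1313 score C was 0.693 and 0.696 with FBLQua, against 0.571 and 0.510 with empty vector (difference 0.154, SE 0.0206, adjusted p = 0.000883, limma), and at 28S-1509, guided by SNORD2 from EIF4A2, it was 0.741 and 0.749 with FBLQua, against 0.619 and 0.640 with empty vector (difference 0.116, adjusted p = 0.000849, limma). The groups did not overlap at either site, and wild-type FBL stood above both at 0.899 to 0.925. At 28S-2863 and 28S-1327 (SNORD104) the differences were 0.169 and 0.126. Both calls were lost without either empty-vector replicate and without FBLQua replicate 1. That at 28S-2863 was also lost without FBLQua replicate 2 and with scores not set to 0. Smaller called differences above 0 were seen at 28S-2411 (SNORD6) with 0.061, 28S-4593 with 0.037, 18S-1031 (SNORD59 guides) with 0.030, 28S-3771 (SNORD15A) with 0.028 and 18S-1383 with 0.019. The calls at 28S-4593 and 28S-3771 were lost without FBLQua replicate 1 and without empty-vector replicate 1, and that at 28S-3771 also without FBLQua replicate 2. In the fit on the 4 libraries of this comparison alone no site was called in either direction by limma, with 32 sites at an unadjusted p under 0.05. On the log2 scale of the end ratio none was called either, with 9 sites at an unadjusted p under 0.05.

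Relative to FBLTri, the other mutant, 4 sites were called lower with FBLQua (3.33%) and 6 higher (5%). At 18S-159 score C was 0.712 and 0.722 with FBLQua, against 0.662 and 0.650 with FBLTri (difference 0.0613, SE 0.0109, adjusted p = 0.0167, limma). At 18S-799 it was 0.804 and 0.845 with FBLQua, against 0.731 and 0.728 with FBLTri (difference 0.095, SE 0.0176, adjusted p = 0.0167, limma). FBLQua lay above FBLTri in both libraries at each of these 18S sites. Further sites called higher were 18S-1442 at 0.059, 18S-99 at 0.054, 18S-166 at 0.046 and 28S-3878 at 0.062. The lower sites were 28S-1313 at -0.085, 28S-1509 at -0.075, 28S-2411 at -0.039 and 18S-1031 at -0.021. None of these 10 sites was called in the fit on the 4 libraries alone, which called 1 other site lower and 0 higher (25 sites at an unadjusted p under 0.05, limma) and leaving out either FBLTri replicate left none (17 and 22 sites at an unadjusted p under 0.05, limma). Without FBLQua replicate 1 there were 0 lower and 2 higher, and without FBLQua replicate 2 there were 1 lower and 0 higher.

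Compared with control knockdown with empty vector, 85 sites were called lower with FBLQua (70.8%) and 1 higher (0.833%). Differences reached -0.893 at 28S-2388, -0.781 at 28S-1868 and -0.667 at 18S-1447. At 5.8S-75 the scores were 0.651 and 0.619 with FBLQua, against 0.979 and 0.989 in control knockdown. The higher site was 18S-1410, with no certain guide, at 0.332 and 0.415 with FBLQua, against 0.288 and 0.233 in control knockdown (difference 0.113, adjusted p = 0.0262, limma). That call was lost without FBLQua replicate 2 and without control replicate 2. With equal library medians this comparison gave 28 lower and 54 higher sites.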

How the data were processed

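Per the labels' protocols, small RNA libraries were made from 100 ng of total RNA cut to about 30 nucleotides by alkali (95 °C, 12 min). Per the submitters' processing notes, the tools include cutadapt and Bowtie2. Tool versions and the reference sequence were not given in the sources used here. For 7000 rRNA positions the authors deposited end counts, whole numbers without normalization, and score C as a fraction for 120 sites. The formula given with score C matched the deposited fraction to within 1e-09 at every site of every library (2280 of 2280 values). Because the score is a ratio within a library, depth mainly sets its precision, and a listed site within 6 nucleotides, present at 44 sites, shifts its flank. Counting intervals cover counting error only, as reads carry no molecular identifiers.

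Differences in score C came from limma (version 3.58.1, R 4.3.3) with 1 coefficient for each of the 7 knockdown groups and a variance trend. Tests were two-sided, p-values were adjusted by Benjamini-Hochberg across the 120 sites, and the threshold was 0.05. Means per library were compared by exact permutation in Python 3.11.15 with numpy 2.4.6, pandas 2.3.3 and scipy 1.17.1, and plots used matplotlib 3.10.9. Alternatives were fits on the 4 compared libraries or on the 8 FBL knockdown libraries with a vector, no variance trend, a logit scale, a log2 scale of the end ratio with a pseudocount of 0.01, scores not set to 0, flanks of 2 positions, removal of the 10% of sites with fewest flanking counts, equal library medians, a replicate block, sites with predicted or unknown guides left out, a fit without replicate 2 of control knockdown with empty vector, and each replicate left out. For the mean score, flanks of 2 positions and the replicate block were added after seeing the data.

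Named sites are the 25 largest called differences, every site called higher, the 6 largest not called, up to 4 of each site list, the sites called against FBLTri, the 8 largest each way against empty vector, 18S-1447, 28S-4469 and the 8 narrowest intervals near 0. Sites outside that rule, such as the partner of a shared guide and the 4 at 0 with predicted guides, were named after their values were seen. Host genes of guides come from background knowledge. One host gene list is not reported here. Members, lists and tests were chosen with earlier results of these data known. The knockout libraries of the study were not used, and no rRNA or guide sequence was used here.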

Additional observations from a re-analysis of the deposited data

How the results depend on the processing

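For FBLQua minus wild-type FBL, the count of sites called lower stayed between 59 and 76 under all alternatives but equal library medians, which gave 23 lower and 43 higher. Without each of the 4 libraries in turn it was 59 to 64 lower and 0 to 1 higher. Of the 71 lower sites 46 were called lower in every alternative except equal medians, and 22 in every alternative. The 1 site called higher was lost, leaving 0, in the 4 compared libraries alone, in the 8 FBL knockdown libraries with a vector, on the logit and log2 end ratio scales and with the replicate block. The count was also 0 with the lowest flanking counts left out, which removes that site, and where a difference of 0.05 was required, which it did not reach. Unadjusted p-values were under 0.05 at 67 to 82 sites over the alternatives (limma). The mean score differed by -0.0968 with flanks of 2 positions, against -0.0903, and by -0.0876 to -0.093 without each library in turn. With the median score of each library in place of its mean, the groups differed by -0.102.

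Equal library medians turned the sign of 23 named sites: 18S-1031 to 0.0397, 18S-121 to 0.0823, 18S-1326 to 0.0164, 18S-1328 to 0.020, 18S-1383 to 0.0842, 18S-1391 to 0.015, 18S-166 to 0.0225, 18S-172 to 0.0774, 18S-484 to 0.0625, 18S-509 to 0.000248, 18S-517 to 0.0852, 18S-668 to 0.0154, 28S-1511 to 0.030, 28S-1612 to 0.0875, 28S-2351 to 0.0486, 28S-2824 to 0.0035, 28S-3771 to 0.0901, 28S-3804 to 0.0147, 28S-4032 to 0.00095, 28S-4166 to 0.0991, 28S-4340 to 0.0912, 28S-4593 to 0.0266 and 5.8S-14 to 0.0824. This setting takes the general shift out by construction.

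Against empty vector, no site was called either way (0 lower, 0 higher) in the 4 compared libraries or on the log2 end ratio scale. The logit scale gave 4 lower and 3 higher. There were 16 higher in the 8-library fit, 14 in the fit without replicate 2 of control knockdown with empty vector, and 5 where a difference of 0.05 was also required. Leaving out 1 library gave 8 to 13 lower and 6 to 8 higher. Relative to FBLTri, the logit and log2 end ratio scales gave 0 lower and 0 higher (9 sites and 1 site at an unadjusted p under 0.05, limma), and the 4 compared libraries 1 lower and 0 higher. Equal medians gave 1 lower, the replicate block 2 lower and 3 higher, a required difference of 0.05 left 2 lower, flanks of 2 positions gave 10 higher, and leaving out 1 library gave 0 to 1 lower and 0 to 2 higher. Compared with control knockdown with empty vector, equal medians gave 28 lower and 54 higher. The higher count there was 2 with scores not set to 0, 0 to 2 without 1 library, and 0 in the 4 compared libraries, on the log2 end ratio scale, with flanks of 2 positions and in the fit without replicate 2 of control knockdown. It was 0 with the lowest flanking counts or predicted guides left out, since both settings remove 18S-1410. The cause of the other losses was not tested.

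Libraries with the same replicate number deviated together over sites (r = 0.694), but 2 numbers do not establish a pairing. The fit with the replicate block gave 74 lower and 0 higher sites for FBLQua minus wild-type FBL, and 14 lower and 7 higher against empty vector. There the calls at 18S-799, 28S-2863 and 28S-3771 were not made with the block (adjusted p = 0.0512, 0.0541 and 0.0525, limma). Replicates differed by more than sampling noise, with a chi-square per position of 38.6 for FBLQua and 99.7 for wild-type FBL. Depth limits the sites with few flanking counts, where the counting half-width reached 0.271 in score C.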

Other observations

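Outside the listed sites the score was computed at 3793 rRNA positions more than 6 nucleotides from any of them, with a mean flanking count of at least 100. Of these, 80 (2.11%) were lower with FBLQua than with wild-type FBL by over 0.1 with no overlap of libraries, and 81 (2.14%) were higher, beside 44 (36.7%) and 1 (0.833%) of the listed sites scored the same way. Scores at these positions were not set to 0 where negative. Both wild-type libraries were at 0.5 or more at 693 of them, which held 4 of the 80 lower and 2 of the 81 higher positions. Choosing positions by a high wild-type score favours lower values with FBLQua, so a rank among the 693 is no support for a difference. The lowest difference of the 693 fell at 28S-3606, a position named after its values were seen. Its score was 0.572 and 0.604 with FBLQua, against 0.847 and 0.853 with wild-type FBL, a difference of -0.262. The next lowest was -0.117 and the highest 0.116. With flanks of 2 positions 28S-3606 scored 0.684 and 0.708 with FBLQua, against 0.887 and 0.891 with wild-type FBL. Ends after this position numbered 7973 and 7370 with FBLQua and 3024 and 2563 with wild-type FBL. It scored 0.479 and 0.476 with FBLTri, 0.658 and 0.634 with empty vector, and 0.984 and 0.991 in control knockdown with empty vector. Of the 70 among the 693 at 0.9 or more in both of those control libraries, it was the 1 that was lower with FBLQua by over 0.1 without overlap. The nearest listed site was 28S-3680, at a distance of 74 nucleotides. In the libraries without a vector it scored 0.805 and 0.792 with FBL knockdown, against 0.956 and 0.966 with control knockdown. Whether this position carries a ribose methyl group was not tested.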
